A study of Homo sapiens with 12 samples.

Results

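Metallothioneins and the genes that govern zinc export were followed across RNA-seq libraries of ES2 cells, a human ovarian carcinoma line. The set was defined by gene symbol, after the Ensembl identifiers of the count table had been mapped to symbols, and held 8 of the 58735 genes counted. It comprised 6 metallothionein genes (MT2A, MT1E, MT1X, MT1F, MT1G and MT1M), the transcription factor gene MTF1 and the zinc exporter gene SLC30A1. Of these, 6 had at least 1 count and 5 passed the filter on low counts, among 16891 genes tested. The rule itself used gene symbols and no expression threshold, although the set was drawn up with earlier results of these data known.

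All cells were FDX2-iKO ES2 cells, in which the endogenous FDX2 gene had been knocked out and an editing-resistant, HA-tagged FDX2 was expressed from a doxycycline (Doxy)-dependent TetON promoter. FDX2 is a mitochondrial ferredoxin that supplies electrons for iron-sulfur cluster assembly. By design, Doxy maintains FDX2 and its removal brings FDX2 loss, and "FDX2 loss" below names the libraries labelled as without Doxy. The 4 conditions had 3 libraries each. These were 20% O2 + Doxy and 20% O2 wo Doxy, kept for 6 days at 20% O2, and 3% O2 + Doxy and 3% O2 wo Doxy, kept for 4 days at 20% O2 and then 3 days at 3% O2. Oxygen level and total time in culture therefore cannot be told apart, and neither can FDX2 loss and the removal of Doxy itself. The study's methods name a single knockout clone for use unless stated otherwise, so the libraries stand for 1 clone. As these were bulk RNA samples, fewer cells expressing a gene and less RNA per cell cannot be told apart.

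Metallothioneins are small cysteine-rich proteins that bind zinc and copper and buffer their free levels in the cell. MTF1 is a zinc-sensing transcription factor that, when zinc rises, binds metal response elements in the promoters of metallothionein genes and of SLC30A1. SLC30A1 (ZnT1) is the exporter that moves zinc from the cytosol out of the cell. Metallothionein transcripts are therefore commonly read as a reporter of available zinc, and they are also known to respond to glucocorticoids, oxidative stress and low oxygen.

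Total counts were 24958386 to 34313637 per library. FDX2 itself had 5, 2 and 6 counts in 20% O2 + Doxy, 9, 13 and 4 in 20% O2 wo Doxy, 2, 4 and 12 in 3% O2 + Doxy and 7, 7 and 5 in 3% O2 wo Doxy. These low counts were not higher with Doxy, and the loss of FDX2 could not be checked from them. Among markers of ovarian carcinoma and epithelium, KRT7, KRT8, KRT18 and PAX8 were expressed (KRT7 at 417 to 677 CPM, counts relative to library size), whereas MUC16 had 0 counts and CDH1, EPCAM, WT1 and NAPSA had at most 9. The mesenchymal genes VIM and CDH2 were expressed, and of the blood markers PTPRC and CD3E had at most 2 counts and LYZ had 27 to 70. Of the endothelial markers, PECAM1 had at most 5 counts and CDH5 656 to 1412, and of the fibroblast markers, DCN had at most 2 and COL1A1 stood at 1069 to 2447 CPM. In 3 libraries (20% O2 + Doxy replicate 1, 3% O2 + Doxy replicate 3 and 3% O2 wo Doxy replicate 2) GC-rich genes ran high relative to GC-poor genes, by 0.176, 0.164 and 0.0944 log2 units per 10 points of GC. Values without these libraries are given below where they matter.

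The 6 metallothionein genes lie in a cluster on chromosome 16 (GRCh38, GENCODE v29). MT2A (ENSG00000125148) spans 56608199 to 56609497, MT1E (ENSG00000169715) 56625475 to 56627112, MT1M (ENSG00000205364) 56632233 to 56633986, MT1F (ENSG00000198417) 56657694 to 56660698 and MT1X (ENSG00000187193) 56682424 to 56684196, all on the plus strand. MT1G (ENSG00000125144) spans 56666731 to 56668065 on the minus strand. Each main transcript has 3 exons. MTF1 (ENSG00000188786) lies on the minus strand of chromosome 1 at 37809567 to 37859620, with 11 exons, and SLC30A1 (ENSG00000170385) on the minus strand of chromosome 1 at 211571568 to 211578742, with 2 exons.

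The coding sequences of 4 metallothioneins are shown because they carry the family's defining feature and because their similarity bears on how reads were assigned. They were read 5′ to 3′ from the GENCODE transcripts, without the stop codon, and in-frame cysteine codons are in capitals.
MT2A: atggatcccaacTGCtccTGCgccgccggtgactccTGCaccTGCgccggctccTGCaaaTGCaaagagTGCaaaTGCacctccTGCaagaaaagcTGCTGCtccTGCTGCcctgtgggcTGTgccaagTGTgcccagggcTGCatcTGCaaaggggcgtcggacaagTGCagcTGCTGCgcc
MT1E: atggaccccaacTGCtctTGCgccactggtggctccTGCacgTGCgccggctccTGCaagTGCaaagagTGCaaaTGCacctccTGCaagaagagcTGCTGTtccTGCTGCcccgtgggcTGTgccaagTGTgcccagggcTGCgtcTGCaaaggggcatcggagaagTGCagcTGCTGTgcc
MT1X: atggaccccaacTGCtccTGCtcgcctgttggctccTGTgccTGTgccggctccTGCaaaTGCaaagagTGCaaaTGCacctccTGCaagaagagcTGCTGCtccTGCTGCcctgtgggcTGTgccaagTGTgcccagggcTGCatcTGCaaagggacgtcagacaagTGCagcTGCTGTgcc
MT1G: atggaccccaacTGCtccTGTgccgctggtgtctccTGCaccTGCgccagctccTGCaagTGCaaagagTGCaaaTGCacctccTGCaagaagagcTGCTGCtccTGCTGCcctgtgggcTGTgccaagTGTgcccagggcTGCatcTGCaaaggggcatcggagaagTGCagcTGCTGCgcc
All 6 coding sequences had 61 codons, of which 20 encoded cysteine. Pairwise identity was 88.5% to 95.1% over 183 bases, with MT1G and MT2A the closest pair and MT1F and MT1X the most distant.

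Over the whole main transcript the genes were more distinct. Of 100-base windows, none of MT1E, MT1F, MT1G, MT1M, MT2A or SLC30A1 occurred in a transcript of another gene, against 19.1% for MT1X. At 150 bases the share for MT1X was 5.65%, and at 50 bases it was 45.1%, compared with 4.88% for MT2A and 5.34% for MT1E. Of the exonic bases of MT1X, 18.1% were shared with ENSG00000259827 on the same strand. That gene was among those sharing 50-base windows with MT1X, so this overlap is not separate from the window share. MT1X counts are therefore the least certain of the set, whereas those of SLC30A1, with no shared window at any of these lengths, are the most certain.

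Promoters were available from RefSeq (GRCh38.p14) for 4 of the 8 genes, from 250 bases before to 50 bases after the gene start. They are shown for MT2A, MT1X and SLC30A1, whose transcripts the results turn on, 5′ to 3′ on the gene's own strand. Capitals mark matches on either strand to the core of the metal response element, searched as TGCACNC or TGCGCNC.
MT2A, chr16:56608334-56608633, plus strand: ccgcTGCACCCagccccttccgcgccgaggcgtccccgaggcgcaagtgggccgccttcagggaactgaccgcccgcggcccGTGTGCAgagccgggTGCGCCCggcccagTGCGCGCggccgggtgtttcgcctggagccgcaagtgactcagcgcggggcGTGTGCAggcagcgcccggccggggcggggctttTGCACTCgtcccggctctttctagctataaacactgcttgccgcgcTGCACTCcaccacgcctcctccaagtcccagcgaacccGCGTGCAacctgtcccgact
MT1X, chr16:56682220-56682519, plus strand: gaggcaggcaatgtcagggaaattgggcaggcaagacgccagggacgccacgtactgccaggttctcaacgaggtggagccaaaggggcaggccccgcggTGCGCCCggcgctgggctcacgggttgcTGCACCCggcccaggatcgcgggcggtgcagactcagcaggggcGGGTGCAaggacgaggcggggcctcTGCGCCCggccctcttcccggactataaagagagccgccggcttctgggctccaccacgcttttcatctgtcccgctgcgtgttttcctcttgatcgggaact
SLC30A1, chr1:211579112-211579411, minus strand: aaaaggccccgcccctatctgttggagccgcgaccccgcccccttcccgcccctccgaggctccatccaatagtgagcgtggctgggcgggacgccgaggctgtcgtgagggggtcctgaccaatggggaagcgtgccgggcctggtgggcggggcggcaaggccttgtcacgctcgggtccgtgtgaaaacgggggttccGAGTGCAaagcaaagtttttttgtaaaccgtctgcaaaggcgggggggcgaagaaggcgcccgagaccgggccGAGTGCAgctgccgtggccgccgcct
MT2A held 8 such matches, MT1X 4 and SLC30A1 2, and the MTF1 promoter (chr1:37859543-37859842) held 0. Among 35116 RefSeq promoters of this length, 29.6% held at least 1 match, 8.6% at least 2, 0.601% at least 4 and 0.074% at least 6. The core of the hypoxia response element, searched as ACGTG or GCGTG, matched 3 times each in MT2A, MT1X and SLC30A1 and 2 times in MTF1. At least 2 of these matches were found in 23.1% of all promoters and at least 3 in 10.1%. In MT2A, 2 of the hypoxia core matches overlapped a metal core match. The RefSeq start of MT2A lies inside the longer gene span given above. The SLC30A1 window lies wholly upstream of its gene span, which ends at 211578742, so its positions refer to the RefSeq start only. These are matches of letters and not measured binding sites.

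Metallothionein expression in ES2 cells came almost entirely from MT2A and MT1E. MT2A ranked 206th of the 16891 genes by mean CPM and MT1E 1004th. In each library MT2A supplied 72.9% to 79.5% of all counts assigned to metallothionein genes and pseudogenes, MT1E 19.9% to 26.1% and MT1X 0.361% to 0.948%. Per kilobase of exon, mean levels across conditions were 413 to 497 CPM for MT2A, 158 to 191 for MT1E, 6.46 to 8.23 for SLC30A1, 3.48 to 4.04 for MTF1 and 1.98 to 3.03 for MT1X. The place of MT1X in this order depended on the length used. Per kilobase of its short main transcript it stood at 7.81 to 11.9 CPM, above SLC30A1 and MTF1.

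MT1G and MT1M had 0 counts in all 12 libraries, and MT1F had 1 count in 20% O2 wo Doxy replicate 1, 1 in 3% O2 wo Doxy replicate 2 and 0 elsewhere. A count of 0 allows up to 3 counts, or 0.0882 to 0.121 CPM depending on the library, for counting error only. The other 6 metallothionein genes, MT1A, MT1B, MT1H, MT1HL1, MT3 and MT4, likewise had 0 counts throughout. Of 8 metallothionein pseudogenes, 6 had a count, and none had more than 8 in a library. MT1F, MT1G and MT1M were thus not detectable above this limit in any condition, and no fold change was formed for them.

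**Figure D1:**
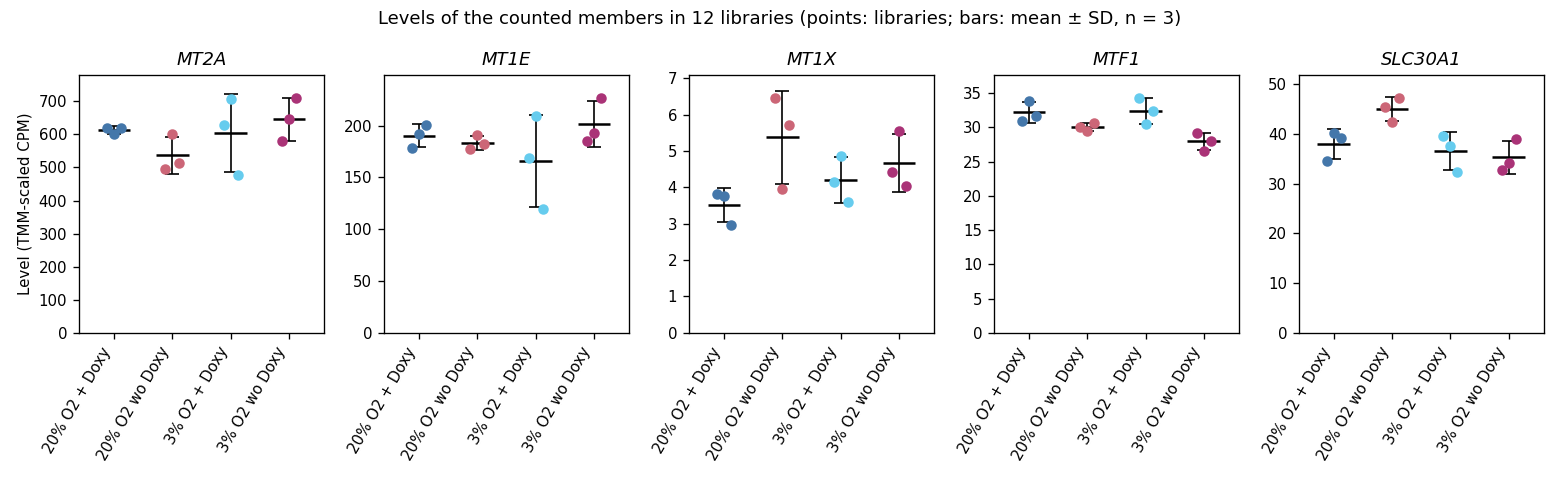
Levels of MT2A, MT1E, MT1X, MTF1 and SLC30A1 in TMM-scaled CPM, with 1 point per library, 3 per condition, and black bars for the mean ± SD. The 3 libraries of 20% O2 wo Doxy lie above those of 20% O2 + Doxy for MT1X (3.95 to 6.45 against 2.97 to 3.80) and above those of 3% O2 wo Doxy for SLC30A1 (42.4 to 47.2 against 32.7 to 39.1).

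The first question was whether FDX2 loss changed these genes at ambient oxygen. MT1X rose 1.53-fold, while the 2 abundant metallothioneins, MT2A and MT1E, did not pass the test and had slightly lower means. SLC30A1 was 1.19-fold higher without FDX2, just short of the threshold, and MTF1 was 0.935 times its level with Doxy. With edgeR's quasi-likelihood test, 1 of the 5 tested genes was called at a Benjamini-Hochberg adjusted p under 0.05, against 35.3% of all genes tested (17.6% higher and 17.7% lower). In 3 of the 5 the libraries of both conditions did not overlap, against 52.3% of all genes.

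MT1X, a minor metallothionein, stood at 3.80, 3.77 and 2.97 CPM in 20% O2 + Doxy and at 6.45, 3.95 and 5.72 CPM in 20% O2 wo Doxy. The groups did not overlap, although replicate 2 without Doxy lay only just above the highest library with Doxy. The log2 fold change was 0.61 (SE 0.200, 95% interval 0.17 to 1.05, edgeR adjusted p = 0.0339), on 101 to 201 counts per library over the experiment. Without any 1 of 5 of these 6 libraries the call was lost: 0.66, 0.66 and 0.50 on leaving out 20% O2 + Doxy replicate 1, 2 or 3, and 0.46 and 0.54 on leaving out 20% O2 wo Doxy replicate 1 or 3. The call was also lost with no filter on low counts (0.58, adjusted p = 0.0584). It was 0.72 (adjusted p = 0.0124) after correction for GC content.

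MT2A, the main metallothionein, stood at 620, 601 and 619 CPM in 20% O2 + Doxy and at 496, 601 and 513 CPM in 20% O2 wo Doxy. A single library without Doxy, replicate 2, reached the level with Doxy, so the groups overlapped. The log2 fold change was -0.19 (SE 0.128, adjusted p = 0.278), with a 95% interval of 0.720 to 1.06 in fold. MT1E stood at 178, 192 and 200 CPM with Doxy and at 177, 191 and 182 CPM without it. The log2 fold change of MT1E was -0.05 (SE 0.158, adjusted p = 0.826), with an interval of 0.758 to 1.23 in fold.

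SLC30A1 stood at 34.7, 40.3 and 39.1 CPM in 20% O2 + Doxy and at 45.5, 42.4 and 47.2 CPM in 20% O2 wo Doxy, and the groups did not overlap. The log2 fold change was 0.24 (SE 0.0936, unadjusted p = 0.0239, adjusted p = 0.0631 from edgeR). It passed the threshold after correction for GC content (0.22, adjusted p = 0.00617) or transcript length (0.31, adjusted p = 0.0386). It also passed when fitted to the 6 libraries alone (0.25, adjusted p = 0.0362). The same held without 3% O2 + Doxy replicate 3, a library outside this comparison (0.24, adjusted p = 0.0356). It did not pass with no filter on low counts (0.21, adjusted p = 0.1757) or with the replicate number as a block (0.25, adjusted p = 0.1063). Leaving out any 1 of the 6 libraries compared did not bring it past the threshold either (0.17 to 0.28). Without the 3 libraries of high GC slope it was 0.17 (adjusted p = 0.0859). MTF1, which encodes the metal-sensing factor, stood at 31.0, 33.9 and 31.7 CPM with Doxy and at 30.1, 29.5 and 30.7 CPM without it. These groups did not overlap either, yet the log2 fold change of MTF1 was only -0.10 (SE 0.0608, adjusted p = 0.248).

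FDX2 loss was next examined at 3% O2. None of the 5 tested genes was called, against 7.31% of all genes (4.2% higher and 3.11% lower), and 1 had an unadjusted p under 0.05. That gene was MTF1, the only one of the 5 whose libraries did not overlap, against 24.6% of all genes. MTF1 stood at 34.3, 30.5 and 32.4 CPM in 3% O2 + Doxy and at 29.2, 26.6 and 28.1 CPM in 3% O2 wo Doxy. Every library without Doxy was lower, and the log2 fold change was -0.21 (SE 0.0612, adjusted p = 0.0607). This value passed the threshold with DESeq2 size factors (-0.23, adjusted p = 0.0454), with the DESeq2 Wald test (-0.23, adjusted p = 0.0135) and after GC correction (-0.19, adjusted p = 0.0235). It also passed without 20% O2 + Doxy replicate 1, a library outside this comparison (-0.23, adjusted p = 0.0449). It did not pass with the replicate number as a block (-0.21, adjusted p = 0.1205) or with only the libraries compared (-0.24, adjusted p = 0.1599). Nor did it pass with no filter on low counts (-0.25, adjusted p = 0.1002) or length correction (-0.20, adjusted p = 0.0979). With at least 10 counts in every library it was -0.23 (adjusted p = 0.0625).

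MT2A and MT1E at 3% O2 were marked by the spread of the libraries with Doxy. MT2A stood at 627, 708 and 477 CPM in 3% O2 + Doxy, a coefficient of variation of 19.4%. It was 1.79% in 20% O2 + Doxy, 10.5% in 20% O2 wo Doxy and 10.1% in 3% O2 wo Doxy. MT1E stood at 169, 209 and 120 CPM in 3% O2 + Doxy. MT1X varied less there (15.1%) than in 20% O2 wo Doxy (23.9%). Replicate 3, one of the 3 libraries of high GC slope, was the lowest of all 12 libraries for both genes. Whether its GC slope took part in this was not tested.

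In 3% O2 wo Doxy, MT2A stood at 580, 646 and 709 CPM and MT1E at 185, 193 and 227 CPM. The highest library was replicate 3 for both genes. The log2 fold change on FDX2 loss was 0.10 for MT2A (SE 0.128, adjusted p = 0.697) and 0.28 for MT1E (SE 0.158, adjusted p = 0.313). Without 3% O2 + Doxy replicate 3, MT2A was at -0.05 and MT1E at 0.091, and without replicate 2 of that condition they were at 0.21 and 0.46. MT1X stood at 4.14, 4.85 and 3.59 CPM with Doxy and at 4.43, 5.56 and 4.02 CPM without it, an overlapping pair of groups with a log2 fold change of 0.15 (SE 0.200, adjusted p = 0.686). SLC30A1 stood at 39.7, 37.7 and 32.4 CPM with Doxy and at 32.7, 34.3 and 39.1 CPM without it. These ranges were nearly the same, and its log2 fold change was -0.05 (SE 0.0944, adjusted p = 0.800).

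Low oxygen was then compared with ambient oxygen among cells that kept FDX2. None of the 5 genes was called, against 2.02% of all genes (1.63% higher and 0.385% lower), none had an unadjusted p under 0.05, and none had libraries that did not overlap, against 15.4% of all genes. The log2 fold changes were -0.02 for MT2A (95% interval -0.30 to 0.26), -0.20 for MT1E (-0.55 to 0.15), 0.26 for MT1X (-0.19 to 0.70), 0.0095 for MTF1 (-0.12 to 0.14) and -0.06 for SLC30A1 (-0.26 to 0.15). The direction for MT2A, MTF1 and SLC30A1 turned under some alternatives. The upper bound in fold was 1.10 for MTF1 and 1.11 for SLC30A1, against 1.62 for MT1X.

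Low oxygen was also compared among cells without FDX2. SLC30A1 fell to 0.785 times its level at 20% O2, and the other 4 tested genes were not called. This 1 call among 5 stood against 25.8% of all genes (13.9% higher and 11.9% lower), and 2 of the 5 (SLC30A1 and MTF1) had libraries that did not overlap, against 49.4%. SLC30A1 went from 45.5, 42.4 and 47.2 CPM in 20% O2 wo Doxy to 32.7, 34.3 and 39.1 CPM in 3% O2 wo Doxy. All libraries at 3% O2 lay below all libraries at 20% O2. The log2 fold change was -0.35 (SE 0.0940, 95% interval -0.56 to -0.14, edgeR adjusted p = 0.0202).

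The size of the SLC30A1 difference depended on the treatment of GC content, which is 38.0% in its transcript, and its call was lost under some settings. After GC correction it was -0.20 (adjusted p = 0.0138), and with the replicate number as a block in addition, on the 6 libraries compared, -0.20 (adjusted p = 0.0564). With the replicate block alone on those libraries it was -0.36 (adjusted p = 0.0105), and without the 3 libraries of high GC slope -0.34 (adjusted p = 0.00739). The call was lost without 20% O2 wo Doxy replicate 1 (-0.36) or 3 (-0.32) and without 3% O2 wo Doxy replicate 1 (-0.30) or 2 (-0.33).

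MT2A was higher at 3% O2 in the means of cells without FDX2, at 645 ± 64.9 CPM against 537 ± 56.3 (SD, n = 3 each). The libraries overlapped, and the log2 fold change of 0.27 did not pass the test (SE 0.128, adjusted p = 0.151). It did without 3% O2 + Doxy replicate 3 (0.27, adjusted p = 0.0428), and it was 0.13 after GC correction. MT1E differed by 0.14 (SE 0.158, adjusted p = 0.547) and MT1X by -0.20 (SE 0.199, adjusted p = 0.466). MTF1 differed by -0.11 (SE 0.0612, adjusted p = 0.220), with 26.6 to 29.2 CPM at 3% O2 and 29.5 to 30.7 CPM at 20% O2.

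**Figure D2:**
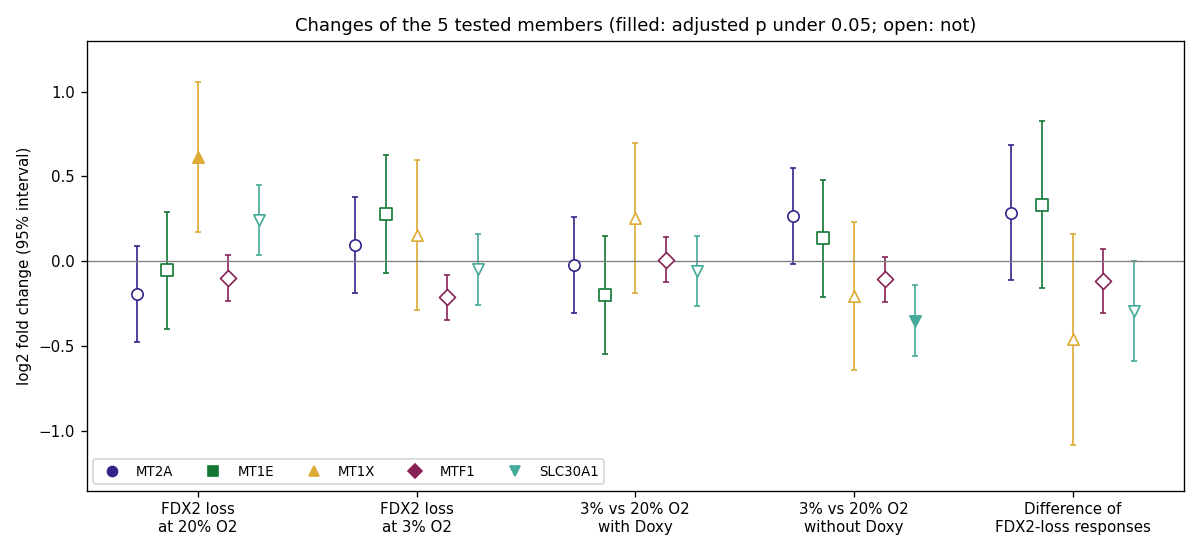
log2 fold changes (y axis) of the 5 tested genes in the 4 pairwise comparisons and in the difference of the FDX2-loss responses (3% minus 20% O2), with 95% intervals from edgeR. The filled symbols are MT1X on FDX2 loss at 20% O2 (0.61) and SLC30A1 at 3% against 20% O2 without Doxy (-0.35), and all others are open.

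Whether the response to FDX2 loss itself differed between oxygen levels was tested directly as an interaction. None of the 5 genes was called, against 7.29% of all genes (3.21% higher and 4.08% lower). SLC30A1 had the smallest p, with a difference of -0.29 (SE 0.133, unadjusted p = 0.0496, adjusted p = 0.212). The differences were 0.29 for MT2A (SE 0.181, adjusted p = 0.373), 0.33 for MT1E (SE 0.223, adjusted p = 0.401), -0.46 for MT1X (SE 0.283, adjusted p = 0.361) and -0.12 for MTF1 (SE 0.0863, adjusted p = 0.454). The change of MT1X at 20% O2 is thus not shown to differ from that at 3% O2.

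Ordered by mean, MT2A was highest in 3% O2 wo Doxy (645 CPM), followed by 20% O2 + Doxy (613), 3% O2 + Doxy (604) and 20% O2 wo Doxy (537). MT1E had the order 201, 190, 183 and 166 CPM for 3% O2 wo Doxy, 20% O2 + Doxy, 20% O2 wo Doxy and 3% O2 + Doxy. Neighbours in these orders overlapped for both genes. MT1X was highest in 20% O2 wo Doxy (5.37 CPM), followed by 3% O2 wo Doxy (4.67), 3% O2 + Doxy (4.19) and 20% O2 + Doxy (3.51), again with neighbours overlapping. MTF1 stood at 32.4 CPM in 3% O2 + Doxy and 32.2 in 20% O2 + Doxy, which overlapped, and lower at 30.1 in 20% O2 wo Doxy and 27.9 in 3% O2 wo Doxy, each below the one before it in every library. SLC30A1 was highest in 20% O2 wo Doxy (45.1 CPM), and the other conditions, at 38.0, 36.6 and 35.4 CPM, overlapped one another.

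All counts assigned to metallothionein genes and pseudogenes summed to 807 ± 13.3 CPM in 20% O2 + Doxy, 726 ± 61.5 in 20% O2 wo Doxy, 774 ± 162 in 3% O2 + Doxy and 852 ± 85.7 in 3% O2 wo Doxy (SD, n = 3 each). The sum was described without a test. The libraries overlapped between 3% O2 + Doxy (600 to 922 CPM) and each other condition. Those of 20% O2 + Doxy (797 to 822 CPM) lay just above those of 20% O2 wo Doxy (681 to 796 CPM). Between these 2 conditions the libraries of 52.3% of all genes did not overlap. MT1E counts were 31.1% ± 2.01 of MT2A counts in 20% O2 + Doxy, 34.3% ± 2.28 in 20% O2 wo Doxy, 27.2% ± 2.24 in 3% O2 + Doxy and 31.2% ± 1.20 in 3% O2 wo Doxy (SD, n = 3 each).

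MT2A and MT1E varied together over the 12 libraries (Pearson r = 0.750 on log2 CPM), and more closely within conditions (r = 0.912). SLC30A1 had r = -0.173 with MT2A over all libraries and 0.502 within conditions, while with MT1E it had 0.327 and 0.695. MTF1 had r = -0.272 with MT2A and 0.145 with SLC30A1. The libraries share conditions and depth, and these values are descriptions.

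Of the 10761 genes whose mean reached 5 CPM, those most like MT2A over the 12 libraries were ATP5IF1 (r = 0.838), MYDGF (0.822), MSRB2 (0.816), CREBZF (0.809) and DBI (0.784). Only 1% of the genes exceeded 0.620, and none exceeded 0.9. SLC30A1 had many close neighbours instead. Its nearest were TTC8 (r = 0.965), SMIM26 (0.964), RO60 (0.959), DBT (0.958) and DPP8 (0.957), and 151 genes exceeded 0.9. Of these 5 nearest genes, 4 had a transcript GC content of 34.1% to 39.3%, near the 38.0% of SLC30A1 and below the median of 47.3% over the candidates, whereas SMIM26 had 54.8%.

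The other zinc transporters were followed as families. Most, but not all, members of the SLC30 family move zinc out of the cytosol, and 5 of 9 other members were tested. On FDX2 loss at 20% O2, 2 rose and 0 fell, against 17.6% and 17.7% of all genes, with a median log2 fold change of 0.19 against 0.0090 over all genes. After GC correction 3 rose and 0 fell, with a median of 0.16 (46.4% of all genes called). Without the 3 libraries of high GC slope 2 rose and 1 fell, with a median of 0.10 (42.5% called). SLC30A4, an exporter of intracellular vesicles, rose from 5.62 ± 1.03 to 8.02 ± 0.101 CPM (SD, n = 3 each), a log2 fold change of 0.51 (adjusted p = 0.0179). SLC30A9, a mitochondrial zinc transporter, rose from 164 ± 14.2 to 208 ± 6.24 CPM (0.34, adjusted p = 0.00263).

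At 3% O2 no other SLC30 gene was called on FDX2 loss, against 7.31% of all genes, with a median of -0.06 against 0.041. After GC correction 1 of 5 was called higher there (19.3% of all genes called). Without the 3 libraries of high GC slope 1 was higher and 1 lower (15.2% called). None was called for low oxygen with Doxy, against 2.02% of all genes. Among cells without FDX2, SLC30A9 fell at 3% O2 by 0.20 on the log2 scale (adjusted p = 0.0483), the only called member, against 25.8% of all genes. The median of the family there was -0.24 against 0.065 over all genes. After GC correction that median was -0.075 and no member was called (33.1% of all genes called). Without the 3 libraries of high GC slope, 3 were called lower (33.5% called). None of the family was called for the difference of the responses, against 7.29% of all genes.

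SLC39 proteins bring zinc into the cytosol, and 11 of 14 were tested. On FDX2 loss at 20% O2, 2 rose and 1 fell, 3 of 11 against 35.3% of all genes, with a median of -0.11. SLC39A11 rose from 7.50 ± 0.375 to 9.70 ± 0.624 CPM (0.37, adjusted p = 0.0143) and SLC39A14, a transporter of zinc, iron and manganese, from 126 ± 4.68 to 141 ± 2.56 CPM (0.16, adjusted p = 0.0465). SLC39A3 fell from 25.3 ± 5.87 to 15.7 ± 1.54 CPM (-0.69, adjusted p = 0.0125). At 3% O2, SLC39A11 rose again (0.41, adjusted p = 0.0344) and no other importer was called, against 7.31% of all genes. After GC correction 1 importer rose and 1 fell there (19.3% of all genes called). Without the 3 libraries of high GC slope 0 rose and 1 fell (15.2% called).

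Low oxygen called no importer among cells with Doxy (2.02% of all genes called), and 1 of 11 as higher after GC correction (7.49% called). Among cells without FDX2, 1 importer rose and 2 fell, 3 of 11 against 25.8% of all genes, with a median of 0.099. SLC39A14 fell from 141 ± 2.56 to 113 ± 5.59 CPM (-0.32, adjusted p = 0.00252) and SLC39A6 from 56.2 ± 1.21 to 47.6 ± 2.10 CPM (-0.24, adjusted p = 0.0118). SLC39A1 rose from 1.45 ± 0.307 to 2.73 ± 0.591 CPM (0.91, adjusted p = 0.0199), but 69.1% of its exonic bases overlap other genes. No importer was called for the difference of the responses, against 7.29% of all genes, and SLC39A14 stood there at -0.29 (adjusted p = 0.0563). For that difference 1 of 11 was called lower after GC correction (18.3% of all genes called). The same number was called lower without the 3 libraries of high GC slope (15% called).

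**Figure D3:**
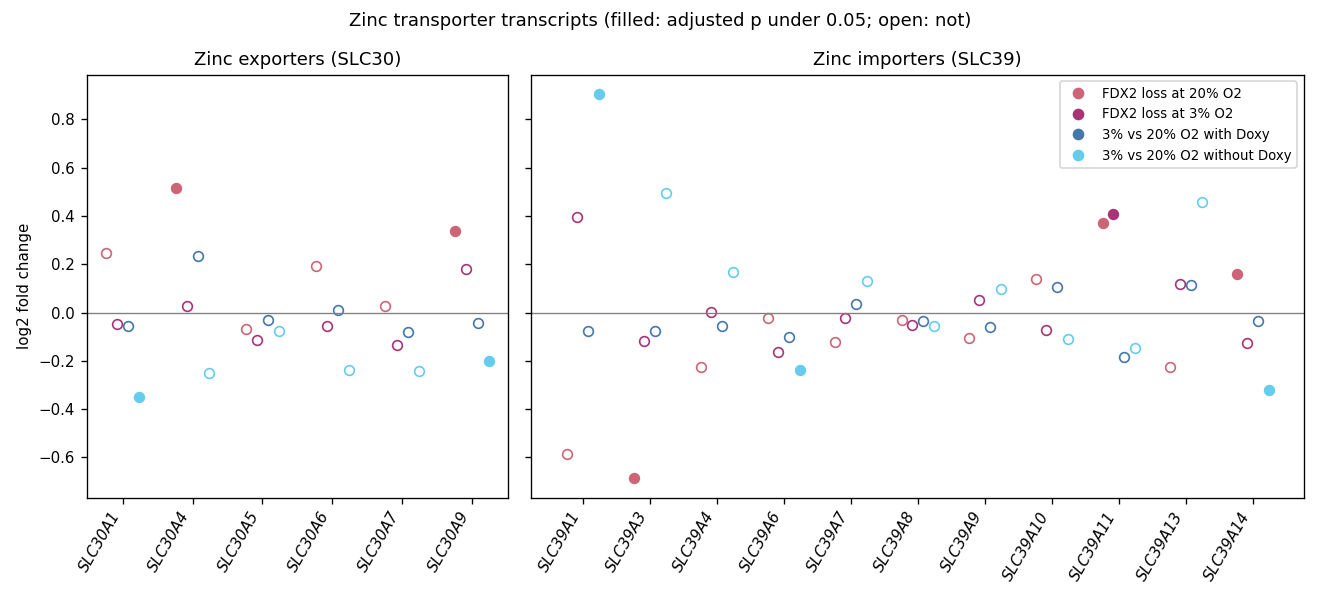
log2 fold changes (y axis) of the tested SLC30 genes (labelled zinc exporters), SLC30A1 included, and zinc importers in the 4 pairwise comparisons. Filled points were called at an adjusted p under 0.05. SLC30A4 and SLC30A9 are the SLC30 genes called on FDX2 loss at 20% O2, and SLC30A1 and SLC30A9 those called at 3% against 20% O2 without Doxy.

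Metallothioneins also bind copper, and 9 of 10 copper-handling genes were tested. On FDX2 loss at 20% O2, 3 rose and 1 fell, 4 of 9 against 35.3% of all genes, with a median of -0.03. ATP7A, the copper-exporting ATPase, rose from 6.15 ± 1.15 to 9.38 ± 1.26 CPM (0.61, adjusted p = 0.0107), and SLC31A1, the main copper importer (CTR1), from 48.2 ± 2.02 to 58.9 ± 2.30 CPM (0.29, adjusted p = 0.00458). COMMD1 rose by 0.29 (adjusted p = 0.0423), with 38.5% of its exonic bases overlapping other genes, and SCO1, a chaperone of cytochrome oxidase assembly, fell by 0.17 (adjusted p = 0.0202). Among cells without FDX2, ATP7A (-0.57, adjusted p = 0.0216) and SLC31A1 (-0.35, adjusted p = 0.00288) were lower at 3% than at 20% O2, 2 of 9 against 25.8% of all genes. None was called at 3% O2 on FDX2 loss or for low oxygen with Doxy, against 7.31% and 2.02% of all genes. The medians were 0.056 and -0.097, against 0.041 and -0.0045 over all genes. After GC correction 1 of 9 was called lower on FDX2 loss at 3% O2 (19.3% of all genes called). SLC31A1 was the 1 of 9 called for the difference of the responses, against 7.29% of all genes (-0.49, SE 0.0893, adjusted p = 0.00845).

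Of 5 other genes linked to MTF1, 4 were tested. On FDX2 loss none was called at 20% O2 (35.3% of all genes called) or at 3% O2 (7.31%). For low oxygen with Doxy none was called either (2.02%). After GC correction 2 of 4 were called higher on FDX2 loss at 20% O2, where 46.4% of all genes were then called. With it, 1 was higher on FDX2 loss at 3% O2 (19.3% of all genes called) and 1 for low oxygen with Doxy (7.49%). Without the 3 libraries of high GC slope, 1 was higher on FDX2 loss at 20% O2 (42.5% called) and 1 at 3% O2 (15.2%). Among cells without FDX2, 1 of the 4 rose at 3% O2 and 1 fell, against 13.9% and 11.9% of all genes. PGF, an angiogenic growth factor gene, rose from 36.1 ± 0.604 to 50.3 ± 7.28 CPM (0.48, adjusted p = 0.0490). GCLC, which encodes the catalytic subunit of the first enzyme of glutathione synthesis, fell from 38.9 ± 1.10 to 32.0 ± 2.27 CPM (-0.28, adjusted p = 0.0185). SELENOW and SLC39A10 had log2 fold changes of 0.0045 and -0.11 in that comparison.

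Heat shock and metal stress genes, many of which respond to toxic metals together with metallothioneins, were followed as a last list. On FDX2 loss at 20% O2, 8 of 9 fell and 1 rose, against 17.7% and 17.6% of all genes, with a median of -0.82. HSPA8 fell by 0.97 (adjusted p = 1.83e-08) and HSPH1 by 0.82 (adjusted p = 1.21e-06), whereas HMOX1, the heme oxygenase gene, rose from 8.29 ± 1.66 to 18.2 ± 0.503 CPM (1.14, adjusted p = 0.000131). At 3% O2, 3 fell on FDX2 loss, against 3.11% of all genes, with a median of -0.29. After GC correction 7 fell and 1 rose (19.3% of all genes called), and without the 3 libraries of high GC slope 6 fell and 1 rose (15.2% called). Among cells without FDX2, 8 of 9 were higher and HMOX1 lower at 3% than at 20% O2 (-0.77, adjusted p = 0.00329), against 13.9% and 11.9% of all genes. With Doxy, 1 was higher at 3% O2, against 1.63% of all genes, with a median of 0.27, and 5 were higher after GC correction (7.49% called). For the difference of the responses 4 were higher, against 3.21% of all genes, and 7 were higher and 1 lower without those 3 libraries (15% called). MT2A and MT1E, by comparison, were called in none of these comparisons.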

How the data were processed

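Poly(A) RNA of 12 libraries was sequenced as paired-end reads, and the authors used STAR for alignment and featureCounts for gene counts on GRCh38 (versions, strand setting and treatment of multimapping reads are not given in the sources used here). The deposited values were raw counts per Ensembl gene. According to the design text, 1 of the paired read files of 20% O2 + Doxy replicates 1 and 2 was lost, while their counts were kept. Groups were taken from the sample titles, which call the libraries replicates, and the design text calls them biological.

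Counts were analysed with edgeR 4.0.16 in R 4.3.3: TMM scaling, filterByExpr, 1 mean per condition over all 12 libraries (8 residual degrees of freedom, common biological coefficient of variation 16.3%) and quasi-likelihood tests adjusted by Benjamini-Hochberg over 16891 genes. Genes were called at an adjusted p under 0.05. CPM used the TMM-scaled library size. Symbols, positions and transcripts came from GENCODE 29, with 58207 of 58735 genes matched, and promoters from RefSeq. DESeq2 1.42.0, other filters, a replicate block, GC and length corrections and leaving out each library were alternatives. In simulated counts for FDX2 loss at 20% O2 over 16703 genes, 126 of 198 genes changed 2-fold were recovered, with 6 false calls. The members and lists were chosen with earlier results of these data known. The 8 members were always named, with up to 4 called genes per list and comparison and the 5 genes most like MT2A and SLC30A1. Some marker genes are not reported here.

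Only between 20% O2 wo Doxy and 3% O2 wo Doxy did all libraries with the same number have correlated deviations from the condition means. There r was 0.247 to 0.363, against at most 0.0756 for unlike numbers. Elsewhere unlike numbers reached 0.818, between 20% O2 + Doxy replicate 1 and 3% O2 + Doxy replicate 3, both of high GC slope. The labels state no pairing, and whether libraries were paired was not tested. No pair of replicates agreed within sampling noise, with a chi-square of at least 2.551 per gene.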

Additional observations from a re-analysis of the deposited data

How the results depend on the processing

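Only the calls of MT1X on FDX2 loss at 20% O2 and of SLC30A1 for oxygen without Doxy were made, and both were lost at an adjusted p under 0.01, so that 0 members were called in either comparison. Members called on FDX2 loss at 20% O2 were 0 with no filter on low counts and 2 with GC correction, length correction or only the libraries compared, and 0 to 2 on leaving out 1 library. Over all genes these settings called 5376 with no filter, 7841 (46.4%) with GC correction, 5902 with length correction and 6470 with only the libraries compared, against 5961. On FDX2 loss at 3% O2, 1 member was called with DESeq2 size factors, GC correction or the DESeq2 Wald test (1320, 3253 and 1944 of all genes), and 0 to 1 on leaving out 1 library. For oxygen without Doxy, 0 were called with the replicate block and GC correction together (4495 of all genes), and 0 to 2 on leaving out 1 library. The cause of these shifts was not tested.

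The replicate block changed no other call among the members, with SLC30A1 at -0.35 (edgeR adjusted p = 0.0465) for oxygen without Doxy in all 12 libraries. It left 676 genes called on FDX2 loss at 3% O2, 218 for oxygen with Doxy and 615 for the difference of responses, against 1235, 341 and 1231. In the other pairs of conditions, libraries with the same number did not all have correlated deviations. For the same 3 comparisons GC correction gave 3253, 1265 and 3093 genes, the DESeq2 Wald test 1944, 629 and 1916, an adjusted p under 0.01 404, 181 and 382, and removal of the 3 libraries of high GC slope, chosen after seeing the data, 2610, 520 and 2568. No filter gave 678 on FDX2 loss at 3% O2 and 672 for the difference. Only the libraries compared gave 218 on FDX2 loss at 3% O2 and 128 for oxygen with Doxy. At an adjusted p under 0.01, 3645 genes were called on FDX2 loss at 20% O2 and 1975 for oxygen without Doxy. On leaving out 1 library, genes called ranged from 4423 to 6707 on FDX2 loss at 20% O2, 581 to 1645 at 3% O2, 190 to 388 for oxygen with Doxy, 2321 to 5225 without Doxy, and 520 to 2191 for the difference, the last without 3% O2 + Doxy replicate 3.

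Sign changes occurred among uncalled log2 fold changes. With GC correction MT1E was 0.033 on FDX2 loss at 20% O2, and SLC30A1 was 0.0057 on FDX2 loss at 3% O2 and 0.0082 for oxygen with Doxy. For oxygen with Doxy, MTF1 was -0.0083 with no filter and MT2A 0.0063 with length correction. Without the 3 libraries of high GC slope, MT1X was -0.11 and MT2A -0.070 on FDX2 loss at 3% O2, and MT2A was 0.13 and MTF1 -0.018 for oxygen with Doxy. On leaving out 1 library, MT2A ranged from -0.050 to 0.21 and SLC30A1 from -0.13 to 0.013 on FDX2 loss at 3% O2, and for oxygen with Doxy MT2A from -0.15 to 0.12, MTF1 from -0.033 to 0.049 and SLC30A1 from -0.13 to 0.025.

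With 3 libraries a condition, the 95% intervals of MT1X spanned 0.47 to 1.12 in fold for the difference of responses, and MT1F, MT1G and MT1M lay at or under the limit that 3 counts set.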
